A study of Homo sapiens with 16 samples.

Results

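TRMT112 and 8 other genes for enzymes that modify RNA, or that act together with TRMT112, were followed through the whole design: METTL5, N6AMT1, TRMT11, ZCCHC4, NSUN2, PUS1, PUS7 and TRMT1. They are 9 of 26830 entries of the deposited expression table, taken by gene name, and all 9 were among the 14951 genes tested. The 9 genes were picked with results of these libraries already known, so their differences are given as a description with no p-value. NOMO-1 cells, a human line of acute monocytic leukaemia, were either treated with a compound or its solvent, or carried a hairpin. CS1 cells received 100 nM of the compound CS1 for 72 h (3 libraries). CS2 cells received 500 nM of the compound CS2 for 72 h (3 libraries), and DMSO cells received solvent for the same time (4 libraries). The series presents CS1 and CS2 as compounds that inhibit FTO, an enzyme that erases the m6A methyl group of RNA. shFTO cells carried a lentiviral hairpin against FTO (3 libraries) and shNS cells the control hairpin (3 libraries), both kept for 1 week in 1 µg/ml puromycin. Every cell in the 5 groups is of the same line, poly(A) RNA was sequenced, and the series text calls the replicates biological without saying whether cultures were separate. The sources used here give neither the hairpin sequence nor the number of hairpins, so hairpin and FTO loss cannot be told apart.

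Transfer RNAs and ribosomal RNAs carry many methyl groups and pseudouridines, which help these RNAs fold, stay stable and read codons. TRMT112 is a small protein without catalytic activity of its own that binds and stabilises a set of methyltransferases acting on tRNA, rRNA and a translation release factor. METTL5, N6AMT1 and TRMT11 are such partners, as are ALKBH8, BUD23, THUMPD2 and THUMPD3. ZCCHC4 places m6A on the rRNA of the large ribosomal subunit, NSUN2 places 5-methylcytosine on tRNA, TRMT1 methylates a guanosine of tRNA, and PUS1 and PUS7 turn uridine into pseudouridine.

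Values are TPM, transcript abundance per length and per library total, as the authors deposited them. Depth is unknown, because TPM hold no read counts, and each library had 18675 to 19358 entries above 0. FTO itself had 8.12, 7.49 and 8.35 TPM in shFTO libraries, against 31.27, 30.82 and 32.79 TPM in shNS libraries, which gives -1.86 on the log2 scale used below (SE 0.0597, limma adjusted p = 7.377e-12). With the compounds FTO averaged 34.1 ± 2.43 TPM (CS1) and 34.2 ± 1.02 TPM (CS2), against 31.7 ± 1.82 TPM in DMSO, and neither difference passed (limma adjusted p = 0.1412 and 0.0936, with values that turned negative after median scaling and after quantile normalization). Under median scaling the CS2 value of FTO passed as a fall (-0.12, limma adjusted p = 0.02634). Errors after ± are SD over libraries. Of 10 monocytic markers, 7 reached 1 TPM in all 16 libraries, while CD14 and MPO stayed under 1 TPM. Their summed level was 920 to 987 TPM in CS1, 1159 to 1212 TPM in CS2, 466 to 479 TPM in DMSO, 2955 to 3531 TPM in shFTO and 701 to 721 TPM in shNS, and LYZ alone reached 2579 TPM in a shFTO library. Lymphocyte, erythroid and epithelial markers summed to at most 8.84 TPM in a library. CD68 ranged from 76.8 to 555 TPM over the 16 libraries, and CD33 only from 65.8 to 96.0 TPM. Of the 8 markers tested, 8 were called higher with CS1 and 8 with CS2 against DMSO, and 6 higher and 2 lower in shFTO against shNS. Such calls were common: of all tested genes 37.5% were called higher with CS1 and 49.5% with CS2. In shFTO 31.9% of all tested genes were called higher and 24.5% lower. Under median scaling the genes called higher with CS1 fell from 5605 to 3201, and the marker counts are given without that scaling. The part of the markers in the results below was not tested. In bulk RNA fewer cells of a type and less RNA per cell cannot be told apart.

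All differences are log2 fold changes of TPM + 1. A gene is called when limma's test across all genes gives a Benjamini-Hochberg adjusted p under 0.05. On this scale the tested genes as a whole had a median other than 0, which was 0.09 for CS1 and 0.20 for CS2 against DMSO, 0.07 for shFTO against shNS and -0.11 for CS1 against CS2, so a value relative to that median is given where it matters. The other scalings named below are median scaling, which shifts every library to a common median, and quantile normalization, which gives every library the same distribution.

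TRMT112 fell furthest of the 9 genes in shFTO cells. It had 27.1, 28.0 and 27.3 TPM in shFTO libraries, against 107.8, 109.5 and 110.7 TPM in shNS libraries. The shFTO mean was 25.1% of the shNS mean, and the log2 fold change was -1.95 (SE 0.0375, 95% interval -2.03 to -1.87). Among the 14951 tested genes, ordered by fold change, TRMT112 held place 12 from the lowest, and FTO, the target of the hairpin, held place 14 with 25.3% of its control. With CS1 the TRMT112 libraries held 86.1, 84.5 and 92.7 TPM and with CS2 97.9, 98.4 and 102.1 TPM, against 115.3, 118.0, 121.0 and 122.9 TPM in DMSO. TRMT112 was thus lower with both compounds, without overlap with DMSO, with log2 fold changes of -0.44 (SE 0.0350) for CS1 and -0.26 (SE 0.0350) for CS2. The order of the 5 group means was, from the lowest, shFTO (27.5 ± 0.484 TPM), CS1 (87.8 ± 4.34), CS2 (99.4 ± 2.32), shNS (109.3 ± 1.45) and DMSO (119.3 ± 3.34), and no 2 neighbours in that order overlapped. The shFTO fall of TRMT112 was larger than the CS1 fall by 1.51 (SE 0.0513, 95% interval 1.40 to 1.62) and larger than the CS2 fall by 1.69.

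TRMT112 lies on chromosome 11 at 64316460 to 64318084 on the minus strand (GRCh38, GENCODE 29), head to head with PRDX5, a peroxidase gene on the plus strand. The GENCODE starts lie 4 bases apart, while the 2 RefSeq starts of TRMT112 leave 130 and 561 bases to that of PRDX5. An exon of the longest GENCODE transcript of TRMT112 covers the bases before the inner RefSeq start (64317559), so only 30 bases around the ETS-type letters nearest that start are shown. For the genes that moved furthest apart with CS2, PUS7 and ZCCHC4, the 250 bases before the start are shown. Sequences are read 5′ to 3′ along the named gene from RefSeq (GRCh38.p14), and capitals mark GGGCGG (the GC box) and CCGGAAG (an ETS-type motif) on either strand.
TRMT112, chr11:64317574-64317603, minus strand: gaggagcatccCCGGAAGtgaggcagcgga
PUS7, chr7:105522272-105522521, minus strand: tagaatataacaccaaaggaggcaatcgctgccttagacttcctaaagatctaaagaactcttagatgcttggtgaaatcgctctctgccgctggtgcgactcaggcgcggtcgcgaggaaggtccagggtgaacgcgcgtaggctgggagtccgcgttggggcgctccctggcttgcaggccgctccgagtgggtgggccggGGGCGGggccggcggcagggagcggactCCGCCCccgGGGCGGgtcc
ZCCHC4, chr4:25312524-25312773, plus strand: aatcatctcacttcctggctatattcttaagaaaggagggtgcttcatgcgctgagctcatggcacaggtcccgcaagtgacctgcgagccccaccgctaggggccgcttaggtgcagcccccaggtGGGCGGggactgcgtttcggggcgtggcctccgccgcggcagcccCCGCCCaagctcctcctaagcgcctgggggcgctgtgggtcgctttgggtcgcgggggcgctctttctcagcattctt

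PRDX5 did not share the course of TRMT112. PRDX5 had 205.3, 198.8 and 197.3 TPM in shFTO libraries, against 223.1, 220.0 and 223.6 TPM in shNS libraries, which is 90.2% of the control (log2 fold change -0.15, limma adjusted p = 0.004014). That small fall was not called under quantile normalization (-0.05). With the compounds PRDX5 rose while TRMT112 fell: its log2 fold change was 0.40 with CS1 (limma adjusted p = 3.198e-07) and 0.44 with CS2 (2.553e-08). At its other end TRMT112 shares 284 exon bases with ESRRA, an orphan nuclear receptor gene on the opposite strand. ESRRA averaged 27.1 ± 0.812 TPM in shFTO, against 24.3 ± 0.104 TPM in shNS (0.15, limma adjusted p = 0.04587, not called after median scaling). Whether the authors counted reads by strand is not given in the sources used here, so reads of the shared bases could be assigned to either gene.

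**Figure D1:**
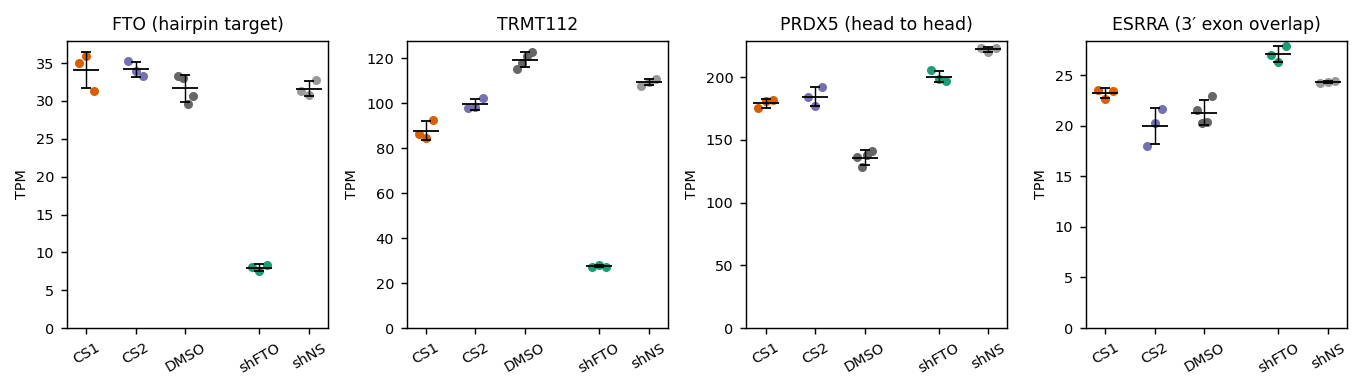
TPM (vertical axes, from 0) of FTO, TRMT112 and the neighbours PRDX5 and ESRRA in each library, by group; dots are libraries and bars the group mean ± SD. TRMT112 and FTO both drop to about the same share of control in shFTO (25.1% and 25.3%), while PRDX5 keeps 90.2%.

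The partners of TRMT112 did not follow it down in proportion. METTL5, which methylates an adenosine of the small-subunit rRNA, was the highest of the 9 genes in DMSO cells. METTL5 had 125.3, 133.3 and 120.7 TPM in shFTO libraries, against 149.9, 156.4 and 155.4 TPM in shNS libraries (log2 fold change -0.28, SE 0.0410). With CS1 it had 111.7, 112.0 and 120.9 TPM and with CS2 124.3, 127.0 and 120.1 TPM, against 138.2 to 143.6 TPM in the 4 DMSO libraries. METTL5 was thus lower in all 3 comparisons with a control, with no overlap, but only by -0.30 (CS1) and -0.19 (CS2) on the log2 scale. METTL5 (chromosome 2, 169810081 to 169824931, minus strand) shares 370 exon bases with SSB on the opposite strand, the gene of the La protein, which binds new RNA polymerase III transcripts. SSB fell more than METTL5: it kept 45.5% of control in shFTO (-1.14, limma adjusted p = 8.823e-09), and its log2 fold change was -0.38 with CS1 (2.543e-04) and -0.61 with CS2 (7.283e-07). How far reads of the shared bases moved between METTL5 and SSB was not tested.

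N6AMT1, which methylates the release factor eRF1, was the lowest of the 9 genes. It had 6.21, 6.76 and 7.24 TPM in shFTO libraries, against 8.38, 9.47 and 8.87 TPM in shNS libraries (-0.36, SE 0.0978). With CS2 the values were 5.48, 5.27 and 5.62 TPM, all under the DMSO range of 6.35 to 7.98 TPM (-0.33, SE 0.0915). CS1 libraries held 7.14, 5.55 and 5.83 TPM and overlapped DMSO (-0.19, 95% interval -0.38 to 0.0076). Their difference was not called, but it was called without CS1 replicate 1 (-0.28) and under both other scalings.

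TRMT11, the catalytic subunit that methylates a guanosine of tRNA, went up with the compounds and down with the hairpin. It had 21.8, 22.8 and 23.0 TPM with CS1 and 24.4, 23.5 and 27.4 TPM with CS2, against 17.8 to 19.1 TPM in DMSO. The log2 fold changes were 0.27 (SE 0.0470) for CS1 and 0.42 (SE 0.0470) for CS2, of which 0.18 and 0.22 were beyond the median of all genes, and the CS1 rise was not called under either other scaling (0.09 and 0.11). In shFTO libraries TRMT11 had 19.9, 19.9 and 19.7 TPM, against 22.4, 21.6 and 22.2 TPM in shNS libraries (-0.15, SE 0.0502). That fall was no longer called without shNS replicate 1 (-0.14) or shNS replicate 3 (-0.14).

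The other 4 partners were not among the 9 genes chosen, and their differences carry a test, though they too were listed with earlier results of these data known, so their p-values are no independent support. BUD23 (entered as WBSCR22), which methylates a guanosine of the small-subunit rRNA, had 57.4, 60.2 and 65.2 TPM in shFTO libraries, against 125.9, 123.6 and 130.3 TPM in shNS libraries (-1.04, SE 0.0472, limma adjusted p = 2.574e-10). It kept 48.1% of control, and held place 136 from the lowest of all tested genes. With the compounds BUD23 averaged 109.4 ± 3.41 TPM (CS1) and 109.7 ± 1.11 TPM (CS2), against 101 ± 4.67 TPM in DMSO, and both small rises (0.12 each) turned negative under median scaling (-0.06 and -0.11) and quantile normalization. ALKBH8, which methylates wobble uridines of tRNA, averaged 10.96 ± 0.935 TPM with CS2, against 7.13 ± 0.314 TPM in DMSO (0.56, limma adjusted p = 8.575e-07). In shFTO it averaged 4.64 ± 0.245 TPM, against 5.25 ± 0.238 TPM in shNS (-0.15, limma adjusted p = 0.07026, called under both other scalings). THUMPD2, which methylates the spliceosomal U6 RNA, was lower with CS1 (21.2 ± 1.76 TPM, against 27.1 ± 0.489 TPM in DMSO, -0.34, limma adjusted p = 2.235e-04). THUMPD3, a tRNA methyltransferase, was lower with CS2 (34.2 ± 2.43 TPM, against 43.7 ± 1.85 TPM in DMSO, -0.35, limma adjusted p = 2.822e-05). In shFTO against shNS neither passed (THUMPD2 -0.05, adjusted p = 0.5126; THUMPD3 0.08, limma adjusted p = 0.2713), though THUMPD2 was called lower under median scaling (-0.14).

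Set against TRMT112 in the same library, messenger RNA of each of the 7 partners was higher in shFTO cells than in shNS cells. The log2 ratio of partner to TRMT112 was higher in shFTO than in shNS by 0.91 for BUD23 and by 1.596 to 2.03 for the other 6, with pooled SDs of 0.030 to 0.082. The summed TPM of the 7 partners was 10.22 to 10.47 times TRMT112 in shFTO libraries, against 3.47 to 3.51 times in shNS libraries. With CS1 the sum was 3.59 to 3.84 times and with CS2 3.22 to 3.43 times TRMT112, against 2.86 to 3.00 times in DMSO. In shFTO libraries N6AMT1, TRMT11, ALKBH8 and THUMPD2 each still lay below TRMT112, with mean log2 ratios of -1.88, -0.45, -2.34 and -0.27. The higher ratios mainly restate the fall of TRMT112, on which the genes were chosen, and concern messenger RNA and not protein.

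**Figure D2:**
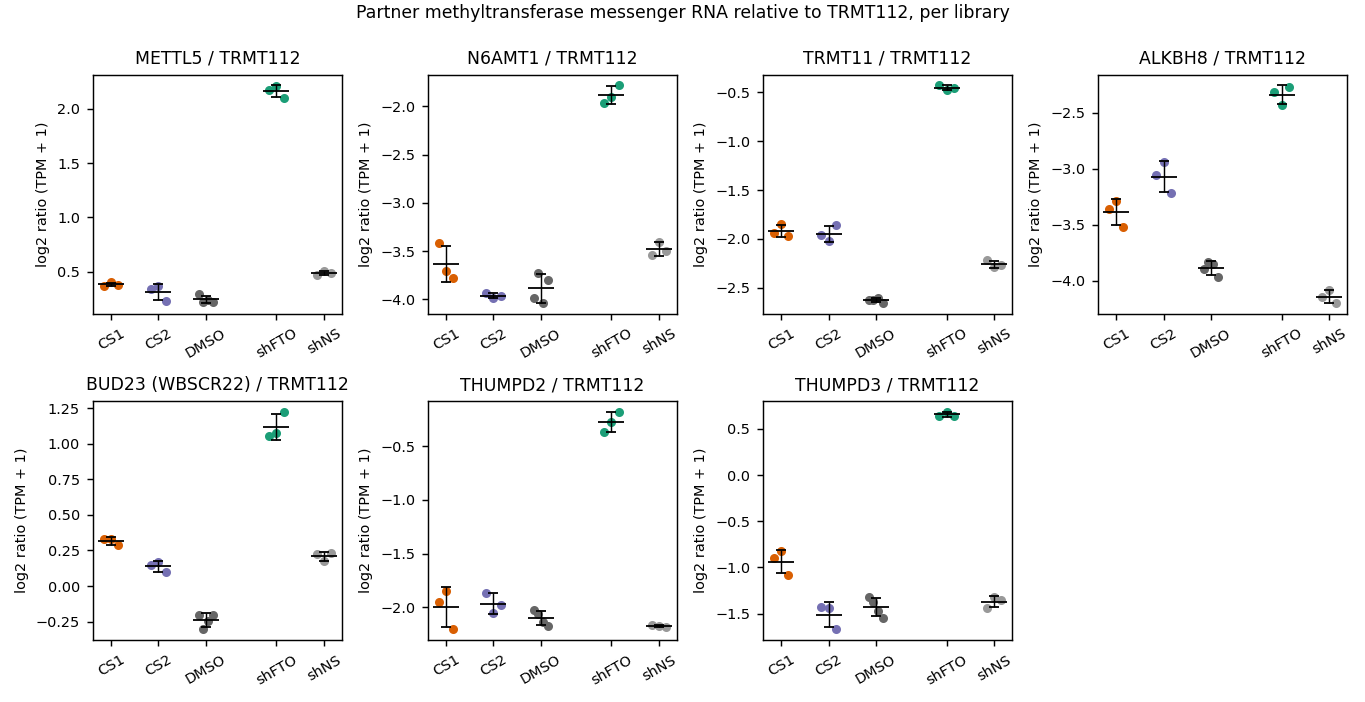
Log2 ratio of each partner to TRMT112, both as TPM + 1 (vertical axes, which differ between panels), in each library by group; dots are libraries and bars the mean ± SD. In every panel the shFTO libraries lie above all others, for METTL5 at 2.102 to 2.21, against 0.47 to 0.51 in shNS.

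ZCCHC4 was the 1 gene of the 9 not called in shFTO cells, and it was higher in CS2 cells. It had 12.9, 13.1 and 12.0 TPM in shFTO libraries, against 13.2, 12.9 and 12.1 TPM in shNS libraries. The ranges overlapped, and the interval of the difference ran from -0.14 to 0.13. With CS2 it had 21.2, 19.8 and 20.1 TPM, against 13.6 to 14.3 TPM in DMSO (0.51, SE 0.0591, relative to the median 0.31). CS1 libraries held 13.9, 17.0 and 14.7 TPM and overlapped DMSO (0.11, 95% interval -0.02 to 0.23), a value that turned negative under both other scalings (-0.07 and -0.08) and was called without CS1 replicate 1 (0.16). ZCCHC4 was thus high in CS2 libraries, and CS1, DMSO, shNS and shFTO lay between 12.0 and 17.0 TPM.

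NSUN2 and TRMT1 both methylate tRNA, and both were lower in shFTO cells. NSUN2 had 53.6, 56.9 and 64.0 TPM in shFTO libraries, against 70.3, 74.8 and 76.7 TPM in shNS libraries (-0.34, SE 0.0536). With CS1 it averaged 116.9 ± 4.90 TPM and with CS2 126.2 ± 0.401 TPM, against 117.7 ± 2.74 TPM in DMSO. The CS2 and DMSO ranges of NSUN2 did not overlap, but the difference of 0.10 was not called, and it became -0.13 under both other scalings. Both hairpin groups of NSUN2 lay below all drug and solvent libraries, and those 2 sets of cells also differed in infection and puromycin. SRD5A1, whose start lies 52 bases from that of NSUN2 on the opposite strand, was higher in shFTO (0.72, limma adjusted p = 5.004e-06). It was also higher with CS1 (0.64, limma adjusted p = 9.072e-06) and with CS2 (0.56, limma adjusted p = 1.29e-05).

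TRMT1 had 28.4, 25.8 and 34.9 TPM in shFTO libraries, against 55.9, 53.8 and 54.2 TPM in shNS libraries (-0.87, SE 0.0801). With CS2 it had 39.0, 41.2 and 42.6 TPM, against 59.5 to 67.1 TPM in DMSO (-0.61, SE 0.0750). CS1 libraries held 68.6, 66.1 and 69.3 TPM, which overlapped DMSO (0.11, 95% interval -0.05 to 0.27, negative under both other scalings). TRMT1 was thus low with the hairpin and with CS2 and at the DMSO level or slightly above with CS1. NACC1, a gene of transcriptional control whose start lies 536 bases away on the opposite strand, did not pass in shFTO and was higher with CS2 (0.33, limma adjusted p = 1.475e-04, not called under either other scaling).

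The pseudouridine synthases PUS1 and PUS7 were lower in shFTO cells and in CS2 cells. PUS7 had 12.8, 11.8 and 17.2 TPM in shFTO libraries, against 29.6, 29.9 and 32.5 TPM in shNS libraries (-1.10, SE 0.101). It had 28.6, 30.9 and 33.9 TPM with CS1 and 12.8, 13.4 and 12.6 TPM with CS2, against 41.7, 43.6, 46.8 and 45.8 TPM in DMSO. The CS2 mean of PUS7 was 29.1% of DMSO (log2 fold change -1.71, 95% interval -1.91 to -1.51), place 178 from the lowest of all tested genes. The CS1 mean was 70.0% of DMSO (-0.50, SE 0.0941). No PUS7 library overlapped its control in any of these comparisons.

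PUS1 had 26.2, 24.5 and 35.7 TPM in shFTO libraries, against 53.1, 51.8 and 48.7 TPM in shNS libraries (-0.83, SE 0.102). With CS2 it had 49.3, 49.96 and 54.7 TPM, against 72.2 to 81.9 TPM in DMSO (-0.58, SE 0.0954). CS1 libraries held 64.5, 64.1 and 71.6 TPM, just under the DMSO range, but the difference was not called (-0.20, 95% interval -0.41 to 0.0015), while it was called under both other scalings (-0.38 and -0.32). For PUS1, PUS7, TRMT1 and NSUN2 the highest shFTO library was replicate 3. Without it the shFTO log2 fold changes became -0.99 for PUS1, -1.25 for PUS7, -0.99 for TRMT1 and -0.41 for NSUN2, and TRMT112 stayed at -1.95.

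**Figure D3:**
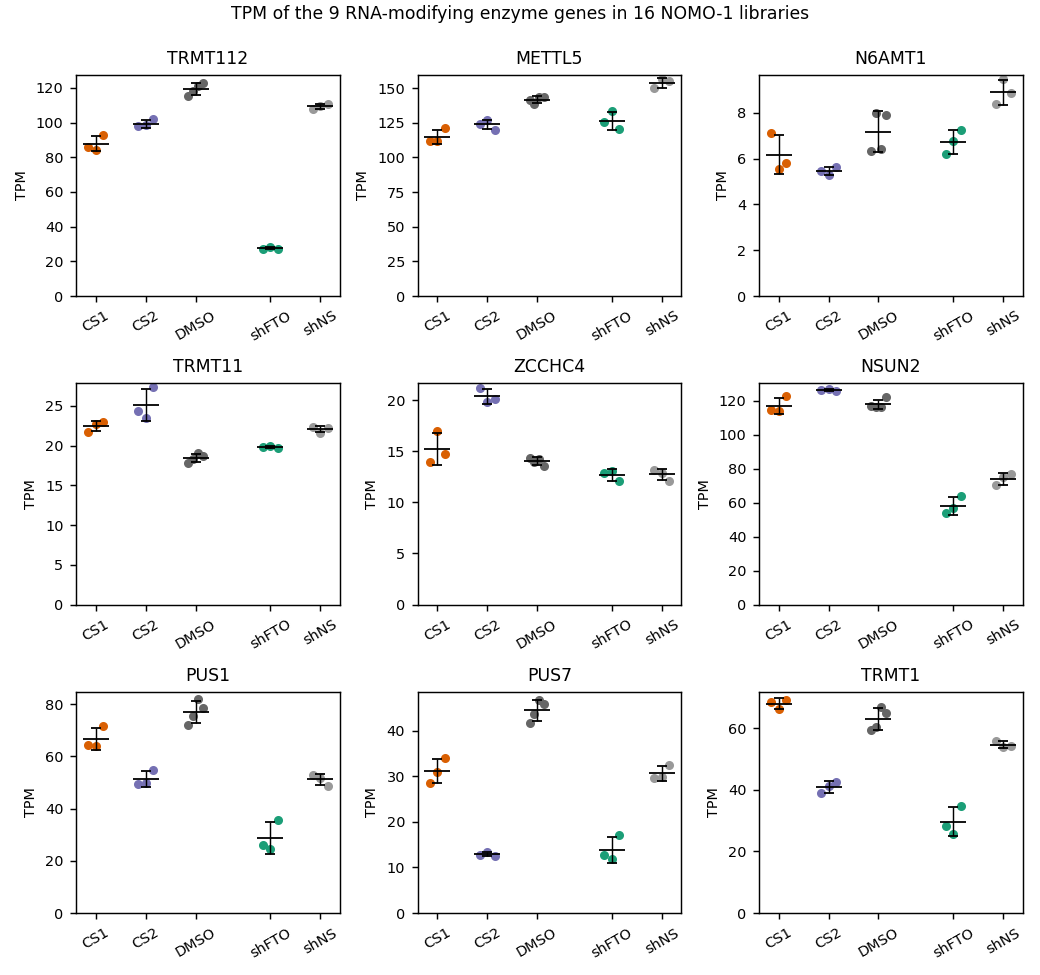
TPM (vertical axes, from 0) of the 9 genes in each of the 16 libraries, by group; dots are libraries and bars the mean ± SD. TRMT112 is lowest in shFTO (27.1 to 28.0 TPM), PUS7 is low in both CS2 and shFTO, and ZCCHC4 is high in CS2 (19.8 to 21.2 TPM).

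Counted over the 9 genes, 0 were called higher and 8 lower in shFTO against shNS, ZCCHC4 being the exception, where 31.9% of all tested genes were called higher and 24.5% lower. With CS2 against DMSO 2 were called higher (TRMT11 and ZCCHC4) and 6 lower, where the shares of all genes were 49.5% and 24.6%, and NSUN2 was not called. With CS1 against DMSO 1 was called higher (TRMT11) and 3 lower (TRMT112, METTL5 and PUS7), where the shares were 37.5% and 14.3%. Under both other scalings the CS1 counts became 0 higher and 6 lower, with N6AMT1, NSUN2 and PUS1 added to the lower calls. The calls over all genes shifted as well: under median scaling CS1 gave 3201 higher and 5246 lower, CS2 5199 and 5667, and shFTO 3759 and 4612. The genes were picked on these same contrasts, so the counts describe the choice. CS1 and CS2 share the DMSO libraries.

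**Figure D4:**
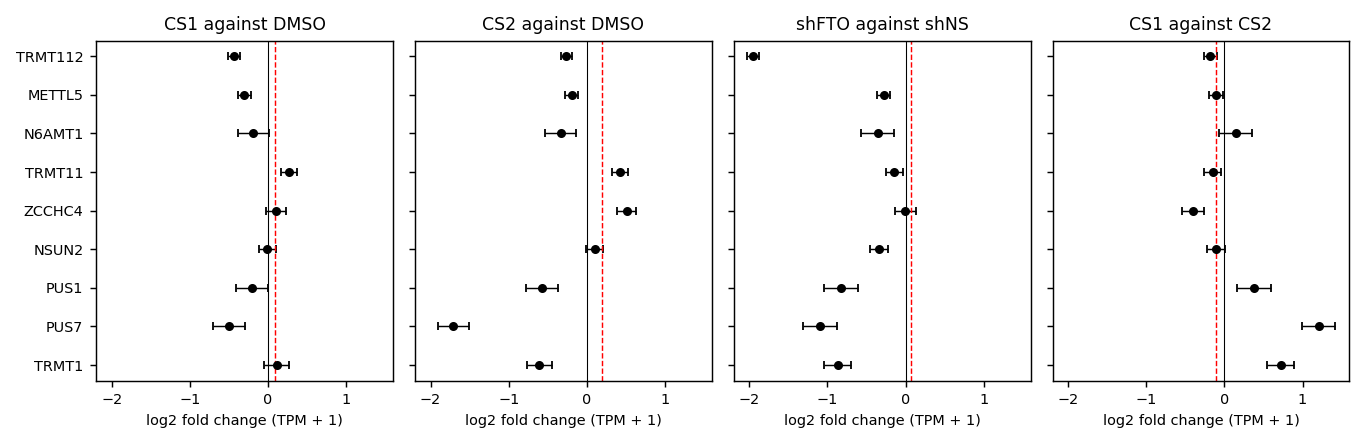
Log2 fold change of TPM + 1 (horizontal axes) of the 9 genes in 4 comparisons; points are estimates, bars 95% intervals, and the dashed line the median of all tested genes. TRMT112 lies furthest left in shFTO against shNS (-1.95) and PUS7 furthest left in CS2 against DMSO (-1.71).

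The response to each compound was set against the response to the hairpin as a difference of differences. For CS1 minus shFTO 6 of the 9 genes were called higher and 0 lower, where 31.0% and 18.3% of all tested genes were. The largest value after TRMT112 was that of TRMT1 (0.98, SE 0.110), followed by PUS1 (0.62) and PUS7 (0.60). METTL5 differed by -0.02 between the 2 responses (95% interval -0.14 to 0.10). For CS2 minus shFTO 4 genes were called higher (TRMT112, TRMT11, ZCCHC4 and NSUN2) and 1 lower, where the shares of all genes were 39.8% and 23.7%. The lower one was PUS7 (-0.61, SE 0.138), whose fall was larger with CS2 than with the hairpin. PUS1 differed by 0.25 (95% interval -0.05 to 0.55) and TRMT1 by 0.26 (95% interval 0.02 to 0.49). Neither was called, though the TRMT1 interval, which is not adjusted for the number of genes, lay above 0.

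CS1 and CS2 were also set side by side, at doses that differ (100 nM and 500 nM). PUS7 was 241% of its CS2 mean in CS1 cells (1.205, SE 0.101), TRMT1 166% (0.72, SE 0.0801) and PUS1 130% (0.37, SE 0.102). ZCCHC4 was lower with CS1 than with CS2 (-0.40, SE 0.0632). TRMT112 was lower with CS1 than with CS2 (-0.18, relative to the median of all genes -0.07), and this was not called under either other scaling (-0.13 and -0.05). In all, 3 of the 9 genes were called higher and 4 lower, where 26.2% and 40.4% of all tested genes were. METTL5, TRMT11, ZCCHC4 and TRMT112 were the 4, and the METTL5 ranges overlapped. Of these, ZCCHC4 alone was called lower under median scaling (-0.35) and under quantile normalization (-0.34). The size of these differences cannot be told apart from the dose.

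The setting is given by 88 other genes for enzymes that modify RNA, among them the 4 partners described above, from lists also made with earlier results known. In shFTO against shNS 5 of them were called higher and 56 lower (median -0.26), where 31.9% of all tested genes were called higher and 24.5% lower (median 0.07). DKC1, the catalytic pseudouridine synthase of box H/ACA particles, averaged 88.3 ± 4.88 TPM in shFTO, against 177.4 ± 6.45 TPM in shNS (-0.998, limma adjusted p = 1.631e-09). TRUB2, a mitochondrial pseudouridine synthase, averaged 17.5 ± 2.36 TPM, against 35.4 ± 0.291 TPM (-0.98, limma adjusted p = 2.418e-07). FBL, the methyltransferase of box C/D particles, averaged 309.4 ± 28.3 TPM, against 539.7 ± 11.4 TPM (-0.80, limma adjusted p = 1.297e-07). TRMT6, a subunit of a tRNA adenosine methyltransferase, averaged 35.7 ± 3.36 TPM, against 59.9 ± 2.24 TPM (-0.73, limma adjusted p = 7.314e-08). TYW3 and TYW5, which act in wybutosine synthesis, were among the 5 that rose (0.24 and 0.29, limma adjusted p = 0.001924 and 0.01148).

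By class, THUMPD2 being in none of the 4, and beside the same shares of all genes, the shFTO counts were 0 higher and 13 lower of 15 other rRNA modifiers (median -0.46) and 1 higher and 17 lower of 29 other tRNA methyltransferases (median -0.23). Among 11 other pseudouridine synthases 1 was called higher and 8 lower (median -0.51), and among 32 further tRNA modifiers 3 and 18 (median -0.18). The fall of TRMT112 (-1.95) was below every value of these 88 genes in this comparison.

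With CS2 against DMSO 29 of the 88 were called higher and 44 lower (median -0.17), where 49.5% and 24.6% of all tested genes were (median 0.20). Median scaling gave 13 higher and 58 lower of the 88, and quantile normalization 14 and 59. RPUSD1, a pseudouridine synthase, averaged 9.43 ± 1.21 TPM with CS2, against 35.6 ± 2.60 TPM in DMSO (-1.81, limma adjusted p = 3.013e-10), beside -1.71 for PUS7. RPUSD2, of the same family, averaged 10.9 ± 1.31 TPM, against 27.9 ± 1.24 TPM (-1.29, limma adjusted p = 2.58e-10). The rRNA modifiers TSR3 and NAT10 had log2 fold changes of -1.30 (limma adjusted p = 9.793e-11) and -1.16 (9.284e-10). TSR3 acts on the small-subunit rRNA, and NAT10 is the RNA acetyltransferase. In the other direction NSUN3, which starts the 5-formylcytosine of a mitochondrial tRNA, averaged 26.7 ± 2.44 TPM with CS2, against 11.6 ± 1.01 TPM in DMSO (1.14, limma adjusted p = 6.073e-08). MTO1, which modifies wobble uridines of mitochondrial tRNA, averaged 40.7 ± 4.73 TPM, against 18.8 ± 1.29 TPM (1.07, limma adjusted p = 1.445e-09). TRMT2B, a mitochondrial methyltransferase, averaged 65.0 ± 1.74 TPM, against 33.9 ± 2.32 TPM (0.92, limma adjusted p = 4.423e-09). LAGE3, of the further tRNA modifiers, and NSUN5, an rRNA modifier, were also higher (0.61 and 0.43, limma adjusted p = 5.247e-08 and 5.29e-07). The mitochondrial TRUB2 was lower (-0.92, limma adjusted p = 5.681e-08), and it was not alone. Of further mitochondrial modifiers, TFB1M (-1.18), TRMT10C (-0.83), RPUSD4 (-0.70) and GTPBP3 (-0.45) were also called lower. METTL15 (0.34), METTL8 (0.33) and MRM2 (0.24) were called higher. Mitochondrial modifiers thus went both ways with CS2, and those named are examples and not a full count.

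With CS1 against DMSO 15 of the 88 were called higher and 22 lower (median -0.04), where 37.5% and 14.3% of all tested genes were (median 0.09). These counts depended on the scaling: median scaling gave 5 and 57 of the 88, where all genes had 3201 higher and 5246 lower and a median of -0.09. TARBP1, a tRNA 2′-O-methyltransferase, averaged 19.8 ± 0.469 TPM with CS1, against 33.7 ± 0.329 TPM in DMSO (-0.74, limma adjusted p = 1.923e-08). MTO1 was higher here too (0.55, limma adjusted p = 8.063e-06), as was NSUN5, which methylates the large-subunit rRNA (0.41, limma adjusted p = 3.189e-06). Between the compounds 43 of the 88 were called higher with CS1 than with CS2 and 24 lower (median 0.14), where 26.2% and 40.4% of all tested genes were (median -0.11). Of the 11 other pseudouridine synthases 7 were higher with CS1 and 0 lower, RPUSD1 by 1.77 (limma adjusted p = 2.396e-09). LCMT2, a wybutosine enzyme, averaged 15.1 ± 0.667 TPM with CS1, against 4.44 ± 0.626 TPM with CS2 (1.57, limma adjusted p = 1.848e-07).

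**Figure D5:**
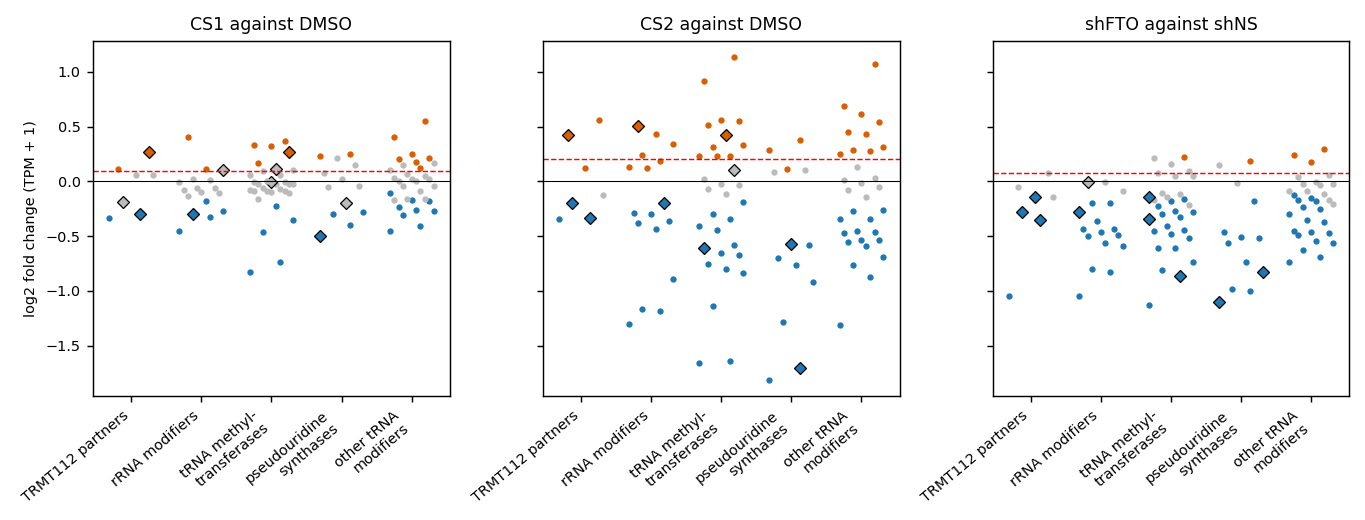
Log2 fold change of TPM + 1 (vertical axis) of each gene in 5 classes of RNA modifier, for 3 comparisons; diamonds with a black edge are the chosen genes, orange and blue mark genes called higher and lower, grey those not called, and the dashed line is the median of all tested genes. TRMT112 itself is not plotted; in shFTO against shNS 56 of the 88 other modifiers are called lower, and in CS2 against DMSO both PUS7 (-1.71) and RPUSD1 (-1.81) lie near the lower edge.

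The genes whose log2(TPM + 1) was most like that of TRMT112 over the 16 libraries were sought among 10177 genes with a mean of at least 5 TPM, as a description over libraries that share 5 groups. The first 5 by Pearson's r were DARS (0.983), SLC25A5 (0.981), GTF2F2 (0.981), PSMA2 (0.980) and RGCC (0.976). DARS is the aspartyl-tRNA synthetase, SLC25A5 a mitochondrial ADP/ATP carrier, GTF2F2 a subunit of the general transcription factor TFIIF and PSMA2 a proteasome subunit. GTF2F2 averaged 33.4 ± 2.50 TPM in shFTO and 93.1 ± 1.93 TPM in shNS, the largest shFTO fall of the 5 (-1.45), while CS1 and CS2 moved it by -0.05 and -0.18. DARS had the smallest shFTO fall of the 5 (-0.36), beside -1.95 for TRMT112. CS1 and CS2 moved DARS by -0.04 and 0.006, beside -0.44 and -0.26 for TRMT112, so a high r did not mean changes of like size. FTO was in place 19 (0.960) and PUS1 in place 341 (0.868). The partners METTL5 (0.360), TRMT11 (0.166) and N6AMT1 (0.135) were far less like TRMT112, and PRDX5 had -0.385.

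Promoter windows of RefSeq, from 250 bases before to 50 bases after a start, were found for 6 of the 9 genes: TRMT112 (with 2 windows), METTL5, TRMT11, ZCCHC4, PUS7 and TRMT1. They were searched on both strands for the letters CACGTG (E-box), CCGGAAG (ETS), GGGCGG (GC box), CCAAT and the motif of NRF1. The E-box was found at PUS7, 28 bases after the start, and at none of the other 5, and 7.26% of all 35116 promoter windows hold it. The ETS letters were found at TRMT112, METTL5 and TRMT11 (10.3% of all windows) and the GC box at TRMT112, METTL5, ZCCHC4, PUS7 and TRMT1 (45.0%). The NRF1 motif matched none of the 6 (1.24%). CCAAT was found at TRMT1 and in the second TRMT112 window (34.6%). A match states only that the letters occur in the window.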

How the data were processed

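The expression of 16 libraries was taken from a table of TPM that the authors deposited, 1 column per library, with totals of 999999.4 to 1000000.8. These values were made with RSEM 1.2.31 on GRCh38, per the submitters' processing notes, which name no aligner and no annotation. Tested genes (14951) reached 1 TPM in 3 or more libraries and were analysed as log2(TPM + 1), which understates changes of low genes. Limma 3.58.1 in R 4.3.3 (eBayes with a trend) was fitted with a mean for each group over all 16 libraries. Tests were two-sided, Benjamini-Hochberg adjusted over all tested genes, with a threshold of 0.05. The fit was tested on simulated data with independent normal noise for each gene and library. Those data held no replicate effect and no shift in scaling, so that test cannot speak to either. The genes described and the gene lists were chosen with earlier results of these data known. Further genes were named by rule: up to 2 per list, direction and comparison with the smallest adjusted p, neighbours whose starts lie head to head, and the 5 genes most like TRMT112; those printed are a selection, and genes whose exons overlap a described gene were added. MRM1 of the rRNA list was not analysed here. Alternatives were a pseudocount of 0.1, no filter, median scaling (a constant added per library), quantile normalization, only the groups compared, the replicate number as a block, and each replicate left out. The main fit did not pair libraries by number, because the labels state no batch. Same-numbered libraries of the groups compared deviated together by r = -0.00925 to 0.219, and 4 to 5 of 6 libraries correlated best with their own number. These values do not show that the numbers are without meaning, so the replicate block is given beside the main fit. Tables and plots used Python 3.11.15. Positions come from GENCODE 29 and sequences from RefSeq (GRCh38.p14).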

Additional observations from a re-analysis of the deposited data

Results flagged for a closer look

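In the group of 4 DMSO libraries, NSUN2 had 121.8 TPM in replicate 4, while replicates 1 to 3 lay at 116.2 to 116.5 TPM. Its gap to the nearest of the others was 0.946 of the group's range, above Dixon's 95% critical value for 4 libraries. It was 1 of 58 genes checked in this way, and chance alone marks about 1 group in 20. The difference of NSUN2 between CS1 and DMSO was -0.0106 with this library and 0.0058 without it, and was called in neither case.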

How the results depend on the processing

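Most changes came with scaling. With CS1 against DMSO the chosen genes called higher were 0 with median scaling and 0 with quantile normalization, and those called lower were 6 and 6. The 88 other modifiers called higher were 5 and 5, and lower 57 and 51. Over all genes CS1 then gave 3201 higher and 5246 lower under median scaling, and 3718 and 4267 under quantile normalization. With CS2 against DMSO the other modifiers called higher were 13 and 14 (all genes 5199 higher and 5667 lower under median scaling). With shFTO against shNS 2 other modifiers were called higher under median scaling (all genes 3759). CS1 against CS2 left 1 and 1 chosen gene called lower (all genes 5445 and 5123, beside 6047 in the main fit). Under quantile normalization 1 chosen gene was called lower for CS1 minus shFTO and 2 for CS2 minus shFTO (all genes 3742 and 4612).

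These values changed sign. With median scaling first and quantile normalization next, CS1 against DMSO gave -0.0718 and -0.0821 for ZCCHC4 and -0.0677 and -0.0175 for TRMT1, and CS2 against DMSO gave -0.130 and -0.130 for NSUN2. CS2 minus shFTO then gave -0.0558 and -0.220 for METTL5 and -0.121 and -0.0130 for N6AMT1. Quantile normalization gave CS1 against CS2 values of 0.0017 for METTL5 and 0.0042 for NSUN2. For NSUN2, CS1 against DMSO was 0.0058 with the replicate block and -0.0448 to 0.0085 with 1 library left out. For ZCCHC4, shFTO against shNS was -0.0375 to 0.0275 with 1 library left out, above 0 without shNS replicate 1, shNS replicate 2 or shFTO replicate 3. METTL5 ranged over -0.057 to 0.0186 for CS1 minus shFTO (above 0 without shFTO replicate 2), and N6AMT1 over -0.0262 to 0.0711 for CS2 minus shFTO. The cause of these changes was not tested.

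With 1 library left out, the chosen genes called lower in CS1 against CS2 were 2 to 5, called higher in CS1 against DMSO 1 to 2, and other modifiers called higher in shFTO against shNS 1 to 5 (1 without shFTO replicate 2). Over all genes these calls were 5321 to 6266, 4826 to 5794 and 4101 to 4592 in turn. The fall of TRMT112 in shFTO was called under every setting run. The replicate block left 8 chosen genes called lower in shFTO against shNS and moved no count of chosen genes or other modifiers by more than 1.5 times. Of the 6 libraries in each comparison, 4 to 5 correlated best with their own number. A pseudocount of 0.1 and no filter changed no call of the chosen genes. Groups of 3 or 4 libraries of unknown depth limit what small differences show.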
